A study of Mus musculus with 18 samples.

Results

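The transcripts described here encode 5 inhibitors of cyclin-dependent kinases (CDKs) in mouse bone marrow B cells: Cdkn2a, Cdkn2b, Cdkn2c, Cdkn2d and Cdkn1b. They were taken by gene symbol from raw count tables that listed 25965 rows each, and all 5 had a row in the female and in the male table. The set holds the INK4 family and the CIP/KIP member Cdkn1b, without the imprinted Cdkn1c and the p53 target Cdkn1a. INK4 proteins (p16INK4a from Cdkn2a, p15INK4b from Cdkn2b, p18INK4c from Cdkn2c and p19INK4d from Cdkn2d) bind CDK4 and CDK6 and keep them from pairing with D-type cyclins, so that RB proteins stay unphosphorylated and hold E2F factors in check. Cdkn1b encodes p27KIP1, which binds cyclin-CDK complexes and is removed by the SKP2 ubiquitin ligase as cells enter S phase. Cdkn2a also encodes ARF, a protein read in another frame that shields p53 from MDM2, and the Cdkn2a and Cdkn2b locus is a known target of Polycomb silencing that becomes active in ageing and senescent cells. In marrow, p18INK4c and p27KIP1 are known for restraining division of lymphoid cells.

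Gene counts came from CD45.2+ B220+ Mac1- cells sorted from femur marrow of C57BL/6 mice aged 12 to 16 months. All animals carried 1 copy of the Vav.Cre transgene (Vav.Cre[T/+]), which is active across blood-forming lineages and not in B cells alone. The heterozygous controls were Smchd1[del/+], with 1 deleted allele of the chromatin silencing gene Smchd1, and the other group was Smchd1[del/del], with 2 deleted alleles. There were 5 heterozygous and 5 del/del females and 4 heterozygous and 4 del/del males. No group with 2 intact alleles was analysed here. The labels give each library an animal number of its own, and the replicate numbers below only name libraries. Each sex had its own table, so sex and table cannot be told apart.

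Cdkn2a (ENSMUSG00000044303) and Cdkn2b (ENSMUSG00000073802) are neighbours on the minus strand of chromosome 4. In mm10 the Cdkn2a row spans 89274473 to 89294653 and the Cdkn2b row spans 89306289 to 89311032, with 11635 bases between them. The Cdkn2a row covers both starts of the gene, the upstream start of the ARF transcript and the inner start of the INK4a transcript, so its reads cannot be divided between the 2 proteins. Cdkn2c (ENSMUSG00000028551) lies on the same chromosome at 109660876 to 109667189, minus strand. Cdkn2d (ENSMUSG00000096472) lies on chromosome 9 at 21288463 to 21291209, minus strand, and Cdkn1b (ENSMUSG00000003031) on chromosome 6 at 134920401 to 134925513, plus strand. No other GENCODE M21 gene overlapped the exons or introns of any of these rows.

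Bases upstream of the 3 starts of the Cdkn2a and Cdkn2b locus are printed 5′ to 3′ because these starts feed the pair of rows with the fewest reads and the largest ratios between genotypes. They come from the RefSeq promoter table (GRCm38.p6), and capitals mark CG dinucleotides, the sites of DNA methylation in mammals. The printed stretch is chr4:89294654-89294869 for the ARF start, chr4:89282193-89282442 for the INK4a start and chr4:89311033-89311282 for the Cdkn2b start, all on the minus strand. The ARF stretch ends where the Cdkn2a row begins, short of the RefSeq start, which lies inside the row, and the other stretches run up to their starts.
Cdkn2a, upstream of the ARF start: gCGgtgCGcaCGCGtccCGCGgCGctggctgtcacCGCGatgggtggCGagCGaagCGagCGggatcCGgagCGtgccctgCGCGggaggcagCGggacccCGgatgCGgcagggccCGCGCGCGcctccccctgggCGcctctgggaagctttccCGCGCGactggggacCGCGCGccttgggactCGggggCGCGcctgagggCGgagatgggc
Cdkn2a, upstream of the INK4a start: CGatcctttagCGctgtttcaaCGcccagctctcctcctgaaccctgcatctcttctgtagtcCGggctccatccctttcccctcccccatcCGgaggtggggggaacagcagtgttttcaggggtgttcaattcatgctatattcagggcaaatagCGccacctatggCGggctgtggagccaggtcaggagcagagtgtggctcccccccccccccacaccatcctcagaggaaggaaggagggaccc
Cdkn2b, upstream of the start: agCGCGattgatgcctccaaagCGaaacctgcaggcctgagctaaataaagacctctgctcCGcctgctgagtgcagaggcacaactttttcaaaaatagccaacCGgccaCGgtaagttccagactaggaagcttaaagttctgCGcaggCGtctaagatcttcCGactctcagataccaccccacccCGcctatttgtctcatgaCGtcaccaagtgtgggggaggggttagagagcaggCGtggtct
The stretch for the ARF start held 35 CG dinucleotides in 216 bases and was 78.7% G or C. Those before the INK4a and Cdkn2b starts held 7 and 12 in 250 bases each. In windows from 250 bases before to 50 bases after a start, the ARF window had 45 CG dinucleotides, which 1.93% of 32851 windows in that table reached, against a median of 7. The INK4a window had 12 and the Cdkn2b window 18, counts that 39.6% and 29.7% of all windows reached. The words TTTGGCGC, TTTCCCGC, TTTGCCGC and TTTCGCGC, known E2F sites, were searched on both strands, where some of them can overlap each other. Of all windows, 2.265% held at least 1, and among the 7 windows of the 5 genes the ARF window alone held a match, 1 in number. The GC box GGGCGG, searched likewise, was found in 35.7% of all windows. It occurred 3 times in the ARF window and 1 time each in the INK4a and Cdkn2b windows. Outside the locus the Cdkn2d window held 5, the Cdkn2c windows 4 and 0, and the Cdkn1b window 1. A match is a description of these letters and not a binding site.

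Total counts ran from 9788112 to 29405395 over the 18 libraries. Smchd1 transcripts fell in del/del libraries, from 247.7 ± 17.4 to 141.1 ± 17.6 CPM (counts scaled to library size, mean ± SD) in females and from 297.8 ± 21.6 to 177 ± 15.7 CPM in males, with no overlap of the genotypes in either sex. The log2 fold change was -0.82 (SE 0.09, edgeR adjusted p = 0.00119) in females and -0.74 (SE 0.08, adjusted p = 0.00888) in males. Leaving out heterozygous male 1, del/del male 1 or del/del male 3 ended the male call, with adjusted p-values of 0.0525, 0.0540 and 0.0538, while the log2 fold change stayed about as large at -0.75, -0.70 and -0.72. B cell identity markers had a mean log2 CPM of 9.43 to 9.80 over their 10 genes in the libraries. Other markers were also read in the sorted cells. Summed levels were 2431 to 4564 CPM for 15 plasmacytoid dendritic cell genes, 998.8 to 5956 CPM for 15 myeloid genes, 556.4 to 1251 CPM for 11 erythroid genes and 130.7 to 234.3 CPM for 14 T and NK cell genes. No gene of these lists with a row was at 0 in all libraries. In bulk RNA, fewer cells of a type and less RNA per cell cannot be told apart.

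Cdkn2d and Cdkn1b were the most abundant of the inhibitors per length of transcript, Cdkn2c came next, and Cdkn2a and Cdkn2b were near the limit of detection. In heterozygous females, CPM per kilobase of exon were 71.1 ± 5.04 (SD, n = 5) for Cdkn2d, 62.1 ± 7.78 for Cdkn1b, 41.2 ± 3.10 for Cdkn2c, 1.11 ± 0.43 for Cdkn2a and 0.132 ± 0.169 for Cdkn2b. Cdkn2d ran from 65.7 to 77.7 and Cdkn1b from 53.6 to 70.2 on this scale, so these neighbours in the order overlapped. In heterozygous males the order was the same, at 62.7 ± 4.0 (SD, n = 4), 56.0 ± 6.55, 22.8 ± 2.0, 0.694 ± 0.221 and 0.0534 ± 0.0374 CPM per kilobase. Between animals of 1 group, Cdkn2d, Cdkn1b and Cdkn2c varied with a coefficient of variation between 6.38% and 21.9%, and Cdkn2a with one between 31.8% and 38.6%. The plot of levels by library shows all 5 genes in the 4 groups.

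**Figure D1:**
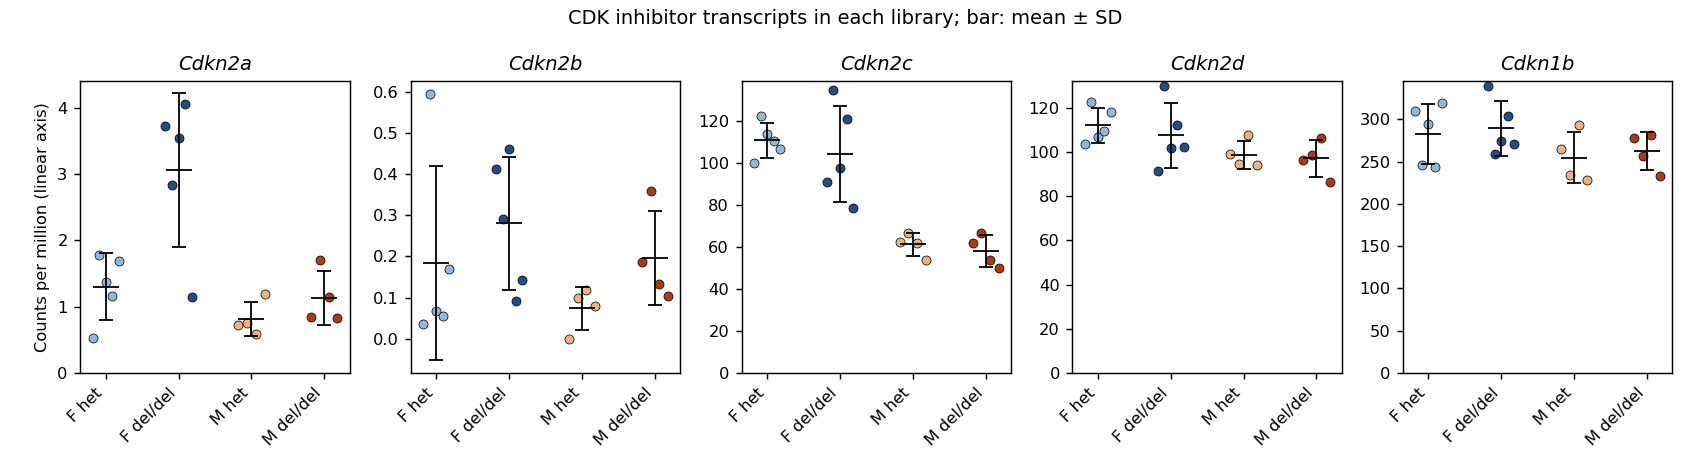
Level of each inhibitor transcript in CPM (linear axis, a different range in each panel) in 5 heterozygous (F het) and 5 del/del (F del/del) female and 4 heterozygous (M het) and 4 del/del (M del/del) male libraries; points are libraries, bars are mean ± SD. Cdkn2a is above the heterozygous females in 4 of 5 del/del females, and Cdkn2c is lower in both male groups than in heterozygous females.

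Cdkn2a, the gene of p16INK4a and ARF, was read at low levels in every library, and most del/del females held more of it than any heterozygous female. The heterozygous females 1 to 5 had 0.521, 1.78, 1.38, 1.16 and 1.68 CPM, from 15, 21, 41, 21 and 40 reads. Those with both alleles deleted had 3.72, 2.84, 3.54, 4.06 and 1.15 CPM, from 72, 68, 92, 89 and 24 reads. In words, 4 of the 5 del/del females lay above all heterozygous females, and del/del library 5 lay inside their range, so the groups overlapped. Group means were 1.31 ± 0.504 and 3.06 ± 1.16 CPM (SD, n = 5 each), and the fitted log2 fold change was 1.24 (SE 0.38, 95% interval 0.41 to 2.07), a fold of 2.37. The unadjusted p of edgeR's quasi-likelihood test was 0.00653 and the adjusted p over all genes 0.591, so the difference was not called. Leaving out each library in turn gave log2 fold changes from 1.02 without heterozygous library 1 (adjusted p = 0.660) to 1.45 without del/del library 5 (adjusted p = 0.155). In the authors' deposited table for females, Cdkn2a had a log2 fold change of 1.255 and an adjusted p of 0.561.

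In males the same gene differed less. Heterozygous males 1 to 4 had 0.729, 0.751, 0.589 and 1.19 CPM, from 7, 15, 10 and 15 reads, and del/del males had 0.841, 1.71, 1.15 and 0.827 CPM, from 18, 38, 26 and 16 reads. Only del/del library 2 lay above all heterozygous males. Means were 0.814 ± 0.259 and 1.13 ± 0.412 CPM (SD, n = 4 each), and the log2 fold change was 0.50 (SE 0.34, 95% interval -0.25 to 1.25, adjusted p = 0.9998). It was 0.23 without del/del library 2 and 0.73 without heterozygous library 4, so single libraries moved this value. The test of the difference between the sexes gave an interaction of -0.76 (male minus female difference, SE 0.56, 95% interval -1.94 to 0.42, adjusted p = 0.9999), so a difference of the genotype effect between sexes was not detectable here. Over both sexes the log2 fold change was 0.95 (SE 0.28, 95% interval 0.37 to 1.54), with an unadjusted p of 0.00296 and an adjusted p of 0.244. By p, Cdkn2a ranked 169 of 14017 genes, and the largest p of a called gene was 0.000264. No library left out in turn, and no other setting run, brought it under an adjusted p of 0.05: over both sexes the adjusted p ran from 0.0899 to 0.460, and the log2 fold change from 0.81 to 1.22.

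For Cdkn2a, counting error alone gave a narrower interval than the fit over animals, clearly so in females and less so in males. Pooled over females, 138 reads of Cdkn2a in heterozygous and 345 in del/del libraries gave a ratio of counts per total of 2.50 with a 95% counting interval of 2.05 to 3.07. In males, 47 and 98 reads gave 1.45 (1.02 to 2.11). These intervals cover counting error only and take no account of differences between animals. The fitted 95% intervals of the fold were 1.332 to 4.205 in females and 0.841 to 2.383 in males.

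Markers of other cells, of B cell stages and of cell division also differed between these libraries. Markers of plasmacytoid dendritic cells, which can carry B220, were above the fitted heterozygous level for 15 of 15 genes in del/del females (median log2 fold change 0.40). In males 13 of 15 were above it (0.45). The median of all genes was -0.0044 in females and 0.0013 in males. None of the 15 markers was called in either sex alone. Over both sexes 1 of 15 was called higher, where 75 of 14017 genes (0.535%) were. The mean log2 CPM of these markers was 6.81, 6.97 and 7.09 in del/del females 1, 3 and 5, above the heterozygous range of 5.87 to 6.64. It was 6.09 and 5.87 in del/del females 2 and 4. Cycling markers were at 6.85, 7.55, 7.11, 7.52 and 6.61 in del/del females 1 to 5, against 7.18 to 7.50 in heterozygous females. Erythroid markers were below the fitted heterozygous level for 10 of 11 genes in both sexes (medians -0.77 in females and -0.66 in males), with none called. Pro-B and pre-B markers were below that level for 15 of 15 genes in both sexes (medians -0.13 in females and -0.31 in males). Mature B cell markers were above it for 15 of 15 genes in females and 13 of 15 in males (medians 0.15 and 0.07). None of these B cell stage markers was called in either sex, and neither list was used as a covariate. With the marker mean as a covariate, the female log2 fold change of Cdkn2a was 1.46 (adjusted p = 0.319) for plasmacytoid dendritic cell markers, 1.53 (0.251) for cycling markers and 1.73 (0.650) for erythroid markers. In males, where it was 0.50 without a covariate, the same fits gave 0.23 (SE 0.48) for plasmacytoid dendritic cell markers, 0.62 (SE 0.37) for cycling markers and 0.65 (SE 0.36) for erythroid markers, so the first covariate moved the value up in females and down in males.

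Of the 5 inhibitors, 4 passed the filter on low counts in each comparison, and none of these 4 was called between genotypes at an adjusted p under 0.05. Over all genes the same rule called 34 of 13501 in females (0.252%), 16 of 13413 in males (0.119%) and 78 of 14017 over both sexes (0.556%), so a count of 0 among 4 does not stand apart from the background. At an unadjusted p under 0.05, 1 of the 4, Cdkn2a, passed in females and over both sexes and 0 in males, where 4.3%, 6.76% and 3.34% of all genes did. DESeq2 also called none of the 4 in these comparisons. The interaction of sex and genotype was called by edgeR for 0 of 14017 genes (0%), while 1.45% of them were at an unadjusted p under 0.05, and DESeq2 called 4. The median log2 fold change of the tested inhibitors over both sexes was -0.0036, and that of all genes was -0.00048.

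**Figure D2:**
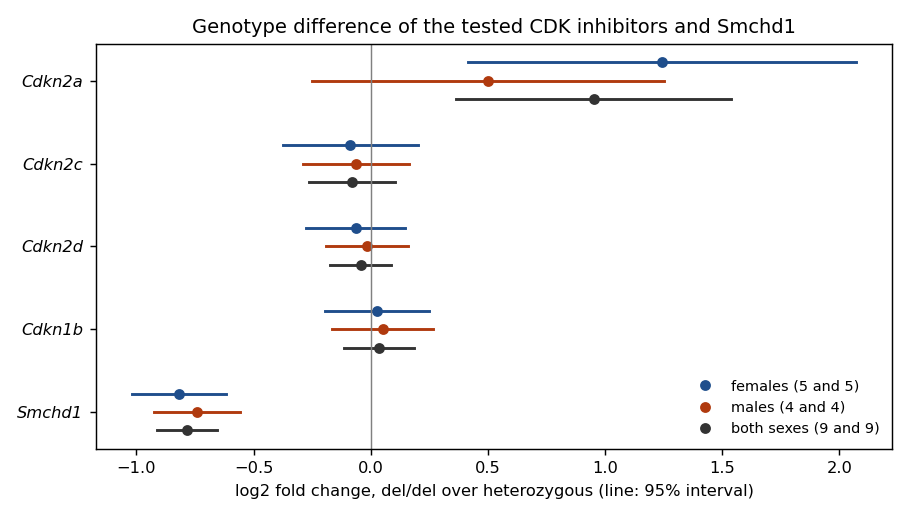
Log2 fold change of del/del over heterozygous libraries with its 95% interval for the 4 inhibitors that were tested and for Smchd1, in females (5 and 5 libraries), males (4 and 4) and both sexes (9 and 9). The intervals of Cdkn2a are the widest, those of Cdkn2c, Cdkn2d and Cdkn1b include 0 in every fit, and those of Smchd1 lie below it.

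Cdkn2b, the gene of p15INK4b next to Cdkn2a, was at 0 to 12 reads per library and did not pass the filter. The heterozygous females had 1, 7, 2, 1 and 4 reads and the del/del females 8, 7, 12, 2 and 3. Reads numbered 0, 2, 2 and 1 in heterozygous males and 4, 8, 3 and 2 in del/del males. The female groups overlapped throughout, while 3 of 4 del/del males lay above all heterozygous males in CPM. In the male library with no read, 0 of 9788112 counts allow a level of up to 0.306 CPM, above 3 of the 4 del/del males, so no absence can be read from it. Means were 0.184 ± 0.235 and 0.280 ± 0.162 CPM in females and 0.0742 ± 0.0520 and 0.196 ± 0.115 CPM in males. Pooled reads gave del/del to heterozygous ratios of 2.13 (95% counting interval 1.12 to 4.24, from 15 and 32 reads) in females and 2.37 (0.84 to 8.22, from 5 and 17 reads) in males. Tested without a filter, Cdkn2b had a log2 fold change of 0.94 over both sexes (SE 0.56, adjusted p = 0.718), 0.77 in females (adjusted p = 0.888) and 1.23 in males (adjusted p = 0.9999).

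Most rows around the locus held few or no reads. As for Cdkn2b, a count of 0 does not show absence. Within 500 kb of the Cdkn2a row lay 27 further rows, 18 of them with 0 reads in all 18 libraries, among them the type I interferon genes Ifna1, Ifna4, Ifna5, Ifna6, Ifna7, Ifna11 and Ifne. The untested rows held at most 12 reads in all, the count of Gm12606, and 2 neighbours were tested. Mtap, which encodes a methionine salvage enzyme, was at 43.6 ± 7.26 CPM in heterozygous and 35.7 ± 3.52 in del/del females, and at 42.7 ± 2.35 and 39.6 ± 3.01 CPM in males. Its log2 fold change over both sexes was -0.21 (SE 0.08, unadjusted p = 0.0122, adjusted p = 0.504), with the opposite sign to Cdkn2a. Dmrta1, which encodes a transcription factor, was at 0.219 to 0.483 CPM on average in the 4 groups and differed by -0.29 on the log2 scale (SE 0.69, adjusted p = 0.937). The sign turned in 1 of 18 fits that left out 1 library, at 0.19 without heterozygous female 4. It also turned in 2 of 10 other alternatives, at 0.41 with Malat1 and 0.81 with erythroid markers as a covariate. The sign of Dmrta1 can therefore not be read.

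Cdkn2c, the gene of p18INK4c, differed between genotypes by less than the spread between animals and was lower in males than in females. The heterozygous females had 100, 122, 114, 111 and 107 CPM, and the del/del females 91.2, 135, 97.5, 121 and 78.4. Of the del/del females, 1 lay above and 3 below all heterozygous ones, and their SD was 22.9 CPM against 8.31. Heterozygous males had 62.6, 66.8, 61.7 and 53.9 CPM, and del/del males had 62.0, 66.8, 53.9 and 50.2, and these ranges overlapped over most of their length. The log2 fold change between genotypes was -0.09 (SE 0.13) in females, -0.06 (SE 0.10) in males and -0.08 over both sexes (SE 0.09, 95% interval -0.26 to 0.11, adjusted p = 0.866).

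Cdkn2d, the gene of p19INK4d, was at 103, 122, 107, 109 and 118 CPM in heterozygous females and at 91.3, 130, 102, 112 and 102 CPM in del/del females. Here 3 of the 5 del/del females lay below and 1 above all heterozygous ones. The 4 heterozygous males had 98.8, 94.5, 108 and 93.9 CPM, and the del/del males 96.5, 98.7, 106 and 86.3 CPM, of which 1 was below the heterozygous range. The log2 fold change was -0.06 (SE 0.10) in females, -0.02 (SE 0.08) in males and -0.04 over both sexes (SE 0.06, 95% interval -0.17 to 0.09, adjusted p = 0.899). A 95% interval this narrow bounds the fold over both sexes between 0.887 and 1.06.

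Cdkn1b, the gene of p27KIP1, had the most counts of the 5. Heterozygous females were at 309, 246, 295, 244 and 319 CPM and del/del females at 339, 259, 274, 303 and 271 CPM. Heterozygous males were at 264, 234, 293 and 229 CPM and del/del males at 278, 256, 282 and 233 CPM. Only del/del female 1 lay outside the range of the heterozygous animals of its sex, above it. The log2 fold change was 0.03 (SE 0.10) in females, 0.05 (SE 0.10) in males and 0.04 over both sexes (SE 0.07, 95% interval -0.11 to 0.19, adjusted p = 0.924), which bounds the fold between 0.925 and 1.14.

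Males and females of the heterozygous genotype were also compared, a comparison added after the data were seen and in which sex, table and any difference of preparation cannot be told apart. In this comparison 1 of the 4 tested inhibitors was called, Cdkn2c, where 3533 of 13352 genes (26.5%) were. A count of 1 among 4 does not stand apart from that share. Cdkn2c fell by 0.85 on the log2 scale in males (SE 0.08, 95% interval -1.03 to -0.67, adjusted p = 4.33e-05), a fold of 0.554, and the groups did not overlap (53.9 to 66.8 against 100 to 122 CPM). All 20 cycling markers were called lower in the same males (median -0.73), with summed levels of 2534 to 3204 CPM against 4442 to 5384 CPM. All 15 mature B cell markers were called higher (median 0.90), and 9 of 15 pro-B and pre-B markers lower. Of all genes, 13.5% were called higher in males and 13% lower. With the cycling markers as a covariate the difference in Cdkn2c was -0.47 (SE 0.22, adjusted p = 0.333) and the call was lost. The mean cycling level did not overlap between these groups (log2 CPM 6.44 to 6.82 in males, 7.18 to 7.50 in females). This fit can therefore hardly separate sex from cycling. Calls over all genes fell to 69 in it, so the lost call is not particular to Cdkn2c. Cdkn2d differed by -0.18 (SE 0.07, adjusted p = 0.0874), Cdkn1b by -0.15 (SE 0.11, adjusted p = 0.327) and Cdkn2a by -0.66 (SE 0.39, adjusted p = 0.241), none of them called. With the cycling covariate Cdkn2a was at 1.40 (SE 1.18), with the sign turned. That error is too wide for the sign to be read.

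Within the 4 groups, libraries with more cycling transcripts held more Cdkn2c. Deviations of each library from its group mean were correlated over 18 libraries, and 30 relations were examined between the 4 tested inhibitors, 6 marker lists and each other. Cdkn2c and the mean of 20 cycling markers had a Pearson r of 0.916 (permutation p = 0.00033 within groups, adjusted over the 30 relations 0.0063) and a Spearman rho of 0.889 (permutation p = 0.00058, adjusted 0.0174). Without the 2 libraries farthest from the median of the cycling markers, r was 0.849, and it was 0.979 among females and 0.737 among males. In females the del/del libraries with the lowest and the highest cycling markers, 5 and 2, were also those with the lowest and the highest Cdkn2c.

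The same gene ran against mature B cell markers, with an r of -0.877 (permutation p = 0.00042, adjusted 0.0063; -0.917 in females and -0.866 in males) and a rho of -0.792 (permutation p = 0.00195, adjusted 0.0293). Without the 2 farthest libraries r was -0.727. With pro-B and pre-B markers, r was 0.783 (permutation p = 0.00302, adjusted 0.0302; 0.779 in females and 0.819 in males), rho was 0.781 (permutation p = 0.0031, adjusted 0.031), and r without the 2 farthest libraries was 0.710. These 3 relations passed on both measures, and the other 27 passed on neither. Among the latter, Cdkn2a and the cycling markers had an r of 0.543 (permutation p = 0.0366, adjusted 0.22) and a rho of 0.397 (permutation p = 0.143, adjusted 0.357), and r fell to 0.404 without the 2 farthest libraries. Cdkn2c and Cdkn2d had an r of 0.658 (permutation p = 0.0255, adjusted 0.191) and a rho of 0.662 (permutation p = 0.0125, adjusted 0.0935), with 0.788 in females and 0.306 in males. Cdkn1b and the cycling markers had an r of -0.240 (permutation p = 0.38, adjusted 0.623) and a rho of -0.317 (permutation p = 0.213, adjusted 0.445). Cdkn1b and the erythroid markers had an r of -0.546 (permutation p = 0.0483, adjusted 0.225) and a rho of -0.521 (permutation p = 0.0578, adjusted 0.251). For Cdkn2a and the erythroid markers r was 0.449 (permutation p = 0.0524, adjusted 0.225) and rho 0.492 (permutation p = 0.0586, adjusted 0.251). Without the 2 farthest libraries that r was 0.598. All these measures share the library and its scaling. The marker lists were not tested against each other, so the relations of Cdkn2c need not be separate findings. In del/del female 5, for one, cycling and pro-B and pre-B levels were the lowest of its group and the mature B cell level the highest.

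**Figure D3:**
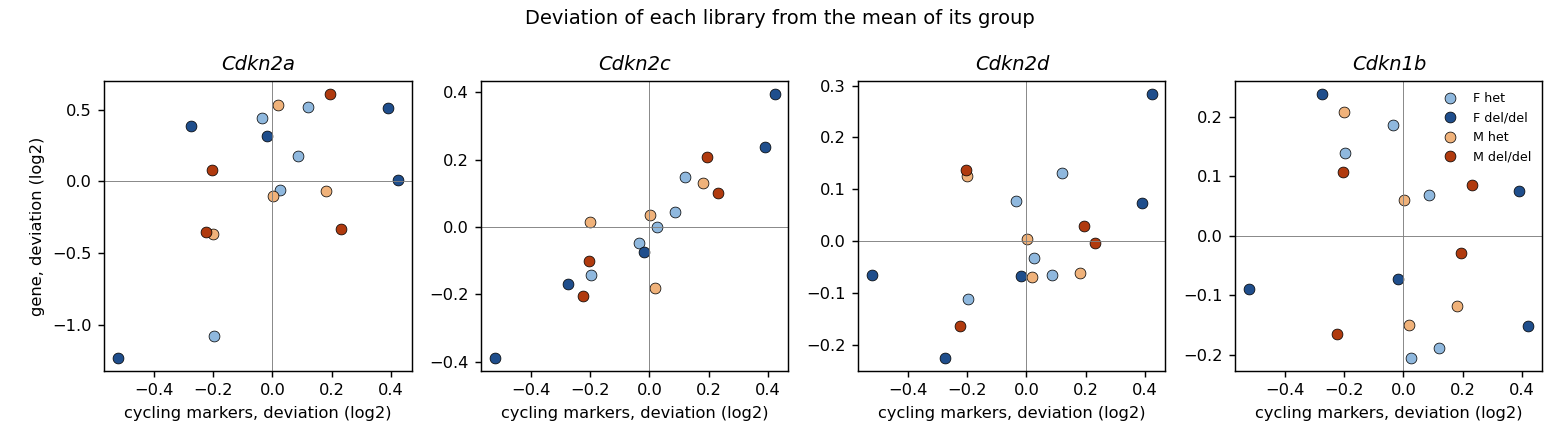
Deviation of 4 inhibitor transcripts (y axis, log2, a different range in each panel) against the deviation of the mean of 20 cycling markers (x axis, log2) in each of 18 libraries, both from the mean of the library's sex and genotype group. Cdkn2c lies close to a line, with an r of 0.916, while Cdkn2a, Cdkn2d and Cdkn1b scatter more widely.

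Genes whose deviations were most like those of each inhibitor were searched among 8879 genes, as a description over the same 18 libraries. For Cdkn2c they were Nsl1 (r = 0.956), Kif22 (r = 0.954) and Cenpa (r = 0.952), itself a cycling marker. Nsl1 and Cenpa encode kinetochore proteins, and Kif22 encodes a mitotic kinesin. For Cdkn2d they were Zfpm1 (r = 0.910), Idh3g (r = 0.870) and Lmnb2 (r = 0.866), which encode a GATA cofactor, a subunit of a mitochondrial dehydrogenase and a lamin. For Cdkn1b they were Wdr77 (r = 0.891), Cd1d1 (r = 0.880) and Zfp932 (r = 0.876), of which Cd1d1 encodes a lipid-presenting surface molecule of B cells. For Cdkn2a, with its few reads, the highest values were lower: Cep76 (r = 0.775), Larp1b (r = 0.772) and S100a13 (r = 0.772). Ranked by Spearman rho, the genes for Cdkn2a were S100a13 (0.740), Sec11a (0.734) and Mfsd6 (0.730). How often a search this wide reaches such values was not tested.

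The genes on which the inhibitors act showed no call between genotypes in the G1 and RB lists. Over both sexes 78 of 14017 genes (0.556%) were called, so 0 in lists this short does not stand apart from the background. Among 10 G1 cyclins and CDKs, 0 were called over both sexes (median log2 fold change -0.12, 8 of 10 below 0). Ccnd3, the D-type cyclin of B cell precursors, was at 592.3 ± 68.8 and 495.8 ± 120.5 CPM in heterozygous and del/del females and at 379.8 ± 50.7 and 324.8 ± 72.9 CPM in males (log2 fold change -0.24, SE 0.11, adjusted p = 0.718). Ccnd1, another D-type cyclin, was at 0.35 (SE 0.20, adjusted p = 0.801) on the log2 scale, and at -0.17 with plasmacytoid dendritic cell markers as a covariate. Ccna2, a cyclin of S phase, was at -0.21 (SE 0.12, adjusted p = 0.801). Of 13 RB and E2F genes 0 were called, with 11 below 0 and a median of -0.12. Tfdp2, a dimer partner of E2F factors, was at -0.27 (SE 0.08, unadjusted p = 0.00445, adjusted p = 0.309), E2f3 at -0.14 (SE 0.06, adjusted p = 0.721) and Rbl1, the gene of p107, at -0.14 (SE 0.07, adjusted p = 0.721). The cycling markers were below 0 for 20 of 20 genes in both sexes (medians -0.22 in females and -0.13 in males) with 0 called. With the cycling markers as a covariate the values over both sexes were -0.10 for Ccnd3, 0.08 for Ccnd1, -0.01 for Ccna2, -0.17 for Tfdp2, -0.06 for E2f3 and -0.07 for Rbl1, all nearer to 0 than without it.

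The lists of genes that control p27KIP1 and act downstream of ARF had medians close to that of all genes. With 0.556% of all genes called over both sexes, a count of 0 in these short lists is no result about them. Of 11 tested genes of p27KIP1 turnover and the FOXO pathway, 0 were called (median -0.02), with 9 below 0. Those of smallest p all encode parts of the ligase that marks p27KIP1. They were Skp1a at -0.12 (SE 0.08, adjusted p = 0.813), Skp2 at -0.14 (SE 0.10, adjusted p = 0.815) and Cks1b at -0.13 (SE 0.11, adjusted p = 0.839). With the cycling markers as a covariate Skp1a was at -0.03, Skp2 at -0.02 and Cks1b at 0.04. Of 5 genes of ARF and p53, 0 were called (median -0.01): Mdm4, a p53 inhibitor, was at 0.12 (SE 0.11), Huwe1, a ligase bound by ARF, at 0.06 (SE 0.07) and Trp53, the gene of p53, at -0.04 (SE 0.05).

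Among 23 tested regulators of the INK4 locus, 1 was called over both sexes and was higher in del/del libraries, where 78 of 14017 genes (0.556%) were called, 75 of them higher. It was Bmi1, the Polycomb protein known for silencing Cdkn2a. Bmi1 was at 59.4, 59.4, 74.4, 61.5 and 57.1 CPM in heterozygous females and at 78.9, 62.8, 78.5, 77.2 and 79.0 CPM in del/del females. Heterozygous males had 72.1, 79.7, 83.7 and 83.2 CPM and del/del males 94.1, 96.5, 104.5 and 100.3 CPM. All del/del males were above all heterozygous males, and 4 of 5 del/del females were above all heterozygous females. The log2 fold change was 0.29 over both sexes (SE 0.06, 95% interval 0.17 to 0.41, adjusted p = 0.0206), 0.26 in females (SE 0.09, adjusted p = 0.836) and 0.32 in males (SE 0.07, adjusted p = 0.264). The fold stayed about as large where the call was lost. It was 0.27 without heterozygous female 5 (adjusted p = 0.0530), 0.27 without heterozygous male 1 (0.0550) and 0.28 without del/del male 3 (0.0512). It was 0.28 with plasmacytoid dendritic cell markers (adjusted p = 0.0896), 0.25 with cycling markers (0.0877) and 0.27 with Malat1 (0.0596) as a covariate. Cbx2, another Polycomb gene, was at -0.23 (SE 0.11, adjusted p = 0.741), and Tbx2, which encodes a repressor of the locus, was below 0.5 CPM on average in each group and at -0.74 (SE 0.36, adjusted p = 0.743). The median of this list was -0.06, against -0.00048 for all genes.

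**Figure D4:**
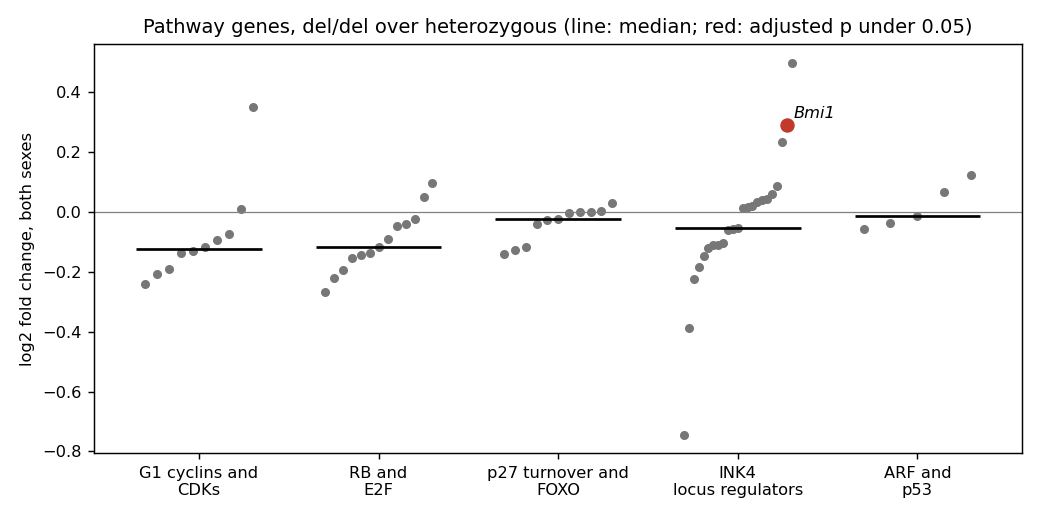
Log2 fold change of del/del over heterozygous libraries over both sexes (y axis) for every tested gene of 5 pathway lists (x axis); points are genes, horizontal lines are list medians and the red point is Bmi1, the gene with an adjusted p under 0.05. List medians lie between -0.12 and -0.01.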

How the data were processed

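Polyadenylated RNA of 18 libraries was sequenced after Illumina TruSeq preparation, per the labels' protocols. Raw gene counts were deposited in 2 tables, 1 for each sex, together with the authors' own results, per the file headers: log2 fold changes, F statistics (a score) and p-values per gene. The submitters' processing notes name TopHat, Trim Galore, FastQC, bcl2fastq and edgeR 3.32.1, and the builds mm10 and GRCm38. Not given in the sources used here were the counter, the annotation release and whether strand was used. The 4 columns of group means were other values by the authors and were not used. Of 25965 rows, 56 had no identifier but carried a symbol, took at most 0.0846% of a library and stayed in the fits.

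Counts were tested in R 4.3.3 with edgeR 4.0.16 (filterByExpr with a minimum count of 10, TMM factors, quasi-likelihood test, Benjamini-Hochberg adjustment over all genes tested, calls at an adjusted p under 0.05), within each sex and over all 18 libraries with sex as a term. A positive log2 fold change is higher in del/del libraries. CPM were scaled with TMM factors over all 18 libraries, and per kilobase values used the union of GENCODE M21 exons. Correlations used log2 CPM with a prior count of 2 and 100000 permutations within groups. DESeq2 1.42.0 and voom of limma 3.58.1 were alternatives. The code was tested on simulated data. No pair of replicates agreed within sampling noise. P-values of the fits weigh a difference against the spread between these libraries, and those of the correlations come from the permutations.

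The genes and lists were chosen with earlier results of these data known. Named were Smchd1, the 5 inhibitors, up to 3 genes of each pathway list of smallest p over both sexes and any called, genes within 500 kb of Cdkn2a, and the 3 genes of highest correlation with each tested inhibitor. A gene name with no row was left out of its list.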

Additional observations from a re-analysis of the deposited data

Results flagged for a closer look

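The values of 8 genes (the 5 inhibitors, Smchd1, Mtap and Bmi1) were examined in 4 groups each, 32 sets in all, for a library far from the rest of its group, and chance marks about 1 set in 20. There were 3 such sets. Cdkn2b was at 0.595 CPM in heterozygous female 2, from 7 reads, with the other 4 libraries of that group at 1 to 4 reads. Bmi1 was at 74.4 CPM in heterozygous female 3, above the other heterozygous females, and at 62.8 CPM in del/del female 2, below the other del/del females.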

How the results depend on the processing

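No called result changed direction under any alternative, and 1140 recomputed values kept their side of the threshold or, for counts, stayed within 1.5 times. Uncalled values changed sign 58 times, all at an adjusted p of 0.580 or more, and between genotypes those of inhibitors were at most 0.09 in size on the log2 scale as reported. The number of genes called moved with the method. DESeq2 called 92 genes in females, 49 in males, 141 over both sexes and 4 for the interaction, against 34, 16, 78 and 0. In females 17 genes were called with an erythroid covariate and 58 with all 18 libraries in one fit, and in males 5 with the plasmacytoid dendritic cell covariate, where Smchd1 was at -0.65 (adjusted p = 0.216) and Cdkn2a at 0.23. Leaving out each library in turn gave 26 to 41 calls in females, 5 to 22 in males, 57 to 115 over both sexes, 0 for the interaction and 2629 to 3588 between male and female heterozygous libraries. The last comparison had 69 calls with the cycling covariate, where Cdkn2c was at -0.47. In males 5 genes were called without heterozygous library 1, 9 without heterozygous library 4, and 6, 5 and 10 without del/del libraries 1, 3 and 4. None of these settings brought a tested inhibitor to a call between genotypes. The labels state no pairs. A replicate block of nearest animal numbers gave 23 calls in females, 13 in males and 88 over both sexes, with Cdkn2a at 0.93 (adjusted p = 0.306). Deviations in the 9 pairs correlated between -0.03 and 0.30. Depth limits Cdkn2a and Cdkn2b, at 7 to 92 and 0 to 12 reads per library.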
